A study of Mus musculus with 6 samples.

Results

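The Toll-like receptor genes Tlr1, Tlr2, Tlr3, Tlr4, Tlr6, Tlr7, Tlr8 and Tlr9, the co-receptor gene Cd14 and the adaptor gene Myd88 were followed in sorted mouse leukaemia initiating cells (LICs), the leukaemia cells that can start the disease again in a new host. They were taken by gene symbol, and all 10 were found among the 23337 genes counted. RNA was sequenced from LICs of adult leukaemia (3 libraries, replicates 1, 2 and 4) and of neonatal leukaemia (3 libraries, replicates 4, 7 and 8), and the study asked how the transcription of the age groups differed. Both groups carry the same source label, haematopoietic stem and progenitor cells (HSPCs), and the same cell type label, sorted LICs, and age is given as a word only. Genotype, strain, driver of the leukaemia, the markers of the sort, agents given and pooling of animals are not given in the sources used here, nor is it said whether each replicate was another animal. The p-values then measure only the spread between these libraries, which may be technical.

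Toll-like receptors recognise molecules of microbes and of damaged cells and start the innate immune response. Tlr1, Tlr2, Tlr4 and Tlr6 act at the cell surface, where Tlr2 pairs with Tlr1 or Tlr6 to bind bacterial lipoproteins and Tlr4 senses lipopolysaccharide handed over by Cd14. Tlr3, Tlr7, Tlr8 and Tlr9 act in endosomes and respond to nucleic acids. All of these receptors except Tlr3 signal through Myd88, which recruits IRAK kinases and leads to NF-kappaB. Monocytes, neutrophils and dendritic cells carry many of the receptors, and haematopoietic stem and progenitor cells carry some of them too.

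Total counts ran from 60113466 to 66132051 in 5 libraries and came to 3932833 in neonatal replicate 4, so fold changes are also given without that library. Levels are counts scaled to library size (CPM, with TMM factors), and levels of different genes are compared only as CPM per kilobase of exon. For a gene at 0 the limit was taken as 3 counts, or 0.897 CPM in the shallow library and 0.0425 to 0.0503 CPM elsewhere. Values of single libraries are listed in the order adult replicates 1, 2, 4 and neonatal replicates 4, 7, 8. All adult libraries held Y-linked RNA (Ddx3y at 98.8 to 154 CPM, against 0, 0 and 1 counts in neonatal libraries), and Xist RNA was at 0.610 to 0.920 CPM in adult libraries and 51.7 to 186 CPM in neonatal libraries. Sex and age therefore cannot be told apart. The 12 stem and progenitor markers summed to 984 to 1595 CPM in the adult libraries, against 1413 to 3631 CPM in the neonatal libraries, with Mecom at 0 counts everywhere and Procr and Slamf1 at 0 counts in all adult libraries. Myb, a factor of progenitors, made up most of the adult sum, at 813 to 1400 CPM in the adult libraries, against 683 to 910 CPM in the neonatal libraries. The cytokine receptor gene Flt3 did not overlap, at 4.58 to 19.4 CPM in the adult libraries, against 256 to 1231 CPM in the neonatal libraries (log2 fold change -6.07, edgeR adjusted p = 0.133, and -6.48 with 0.0348 without neonatal replicate 4). Cd34, chosen after its values were seen, lay the same way without overlap, at 8.16 to 105 CPM in the adult libraries, against 396 to 662 CPM in the neonatal libraries. Hlf, of the same 12 markers and also added after its values were seen, lay the other way without overlap. It was at 0.873 to 2.70 CPM in the adult libraries, against 0 to 0.326 CPM in the neonatal libraries. Neonatal replicate 4 had 0 counts of Hlf, and its limit of 0.897 CPM was above the lowest adult level. Of the 9 markers tested, 3 were positive and 6 negative on the log2 scale. Without overlap, 1 was higher and 2 were lower in the adult libraries. Without neonatal replicate 4 edgeR called 0 higher and 2 lower, Flt3 and Kit. Kit, also added after its values were seen, overlapped between the groups. It was at 50.05 to 85.8 CPM in the adult libraries, against 23.6, 264 and 186 CPM in the neonatal libraries. For Kit the log2 fold change was -1.23 (edgeR adjusted p = 0.571), and -1.75 without neonatal replicate 4 (edgeR adjusted p = 0.0361). The part of these progenitor differences in the results below was not tested.

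Tlr1 and Tlr6 are neighbours on chromosome 5 and share long identical stretches, which bears on how reads were divided between them. Of all words of 75 bases (the read length) in the GENCODE transcripts of Tlr1, 340 (11.2%) also occur in Tlr6, where they make up 9.25%. Of the 45 pairs among the 10 genes, this was the only pair with a shared word. The longest identical coding stretch, 229 bases, lies on the minus strand at chr5:64925537-64925765 in Tlr1 and at chr5:64953828-64954056 in Tlr6 (GRCm38, the mm10 assembly). It is shown because a read from within it fits both genes equally well, and it is read 5′ to 3′:
Tlr1 and Tlr6: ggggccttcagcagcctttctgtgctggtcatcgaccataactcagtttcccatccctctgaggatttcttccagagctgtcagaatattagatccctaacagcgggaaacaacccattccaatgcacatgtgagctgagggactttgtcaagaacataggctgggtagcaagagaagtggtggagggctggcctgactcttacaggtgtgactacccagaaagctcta
The values of Tlr1 and Tlr6 below are uncertain to the extent that such reads were placed at the wrong gene. No exon of the 10 genes shares a base with an exon of another gene in the file, on either strand.

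In adult LICs the lipopolysaccharide receptor gene Tlr4 stood 7.22-fold and the RNA sensor gene Tlr7 8.33-fold higher than in neonatal LICs by the fitted values. The groups did not overlap for either gene. For Tlr7, though, adult replicate 4 at 2.42 CPM was barely above neonatal replicate 4 at 2.09 CPM, which rested on 7 counts. The fitted folds of Tlr1, Tlr6, Cd14 and Myd88, adult over neonatal, were between 1.25 and 1.43, and Tlr2 had the only negative log2 fold change. Of the 10 genes, 8 passed the filter on low counts, and Tlr3 and Tlr9 did not. By edgeR's quasi-likelihood test on 6 libraries, 0 of these 8 passed an adjusted p of 0.05 (of all 13272 genes 0.0527% passed, 0.0377% higher and 0.0151% lower in adult LICs). The Y-linked genes Ddx3y, Eif2s3y, Kdm5d and Uty made up 4 of the 5 genes that passed as higher. Xist was 1 of the 2 that passed as lower. At an unadjusted p below 0.05 there were 2 of the 8 genes, Tlr4 and Tlr7, against 1585 of all genes. DESeq2 on the same libraries called the same 2 genes (5.44% of all genes), limma voom called 0 (0.0527% of all genes), and voom with library quality weights called Tlr4 and Tlr8 (7.96%). Without neonatal replicate 4, edgeR called Tlr4 alone of the 8 (5.98% of all genes were called, 2.25% higher and 3.72% lower in adult LICs). In that fit Tlr1, Tlr6, Tlr2, Cd14 and Myd88 had log2 fold changes of 0.29, 0.30, -0.54, 0.32 and 0.28, with edgeR adjusted p-values from 0.398 to 0.748.

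Over the 8 genes tested the median log2 fold change, adult minus neonatal, was 0.485, against -0.052 over all genes. Without neonatal replicate 4 these medians were 0.312 and 0.0477. Of the 8, 7 were positive, against 46.5% of all genes. In 3 of the 8 (Tlr4, Tlr7 and Myd88) every adult library lay above every neonatal library, and in 0 every adult library lay below. For Tlr7 the gap lay within the counting error of neonatal replicate 4. Over all genes tested the shares were 12% and 7.67%, and 19.6% together. On library totals without TMM scaling Myd88 overlapped and Tlr2 was lower in every adult library.

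**Figure D1:**
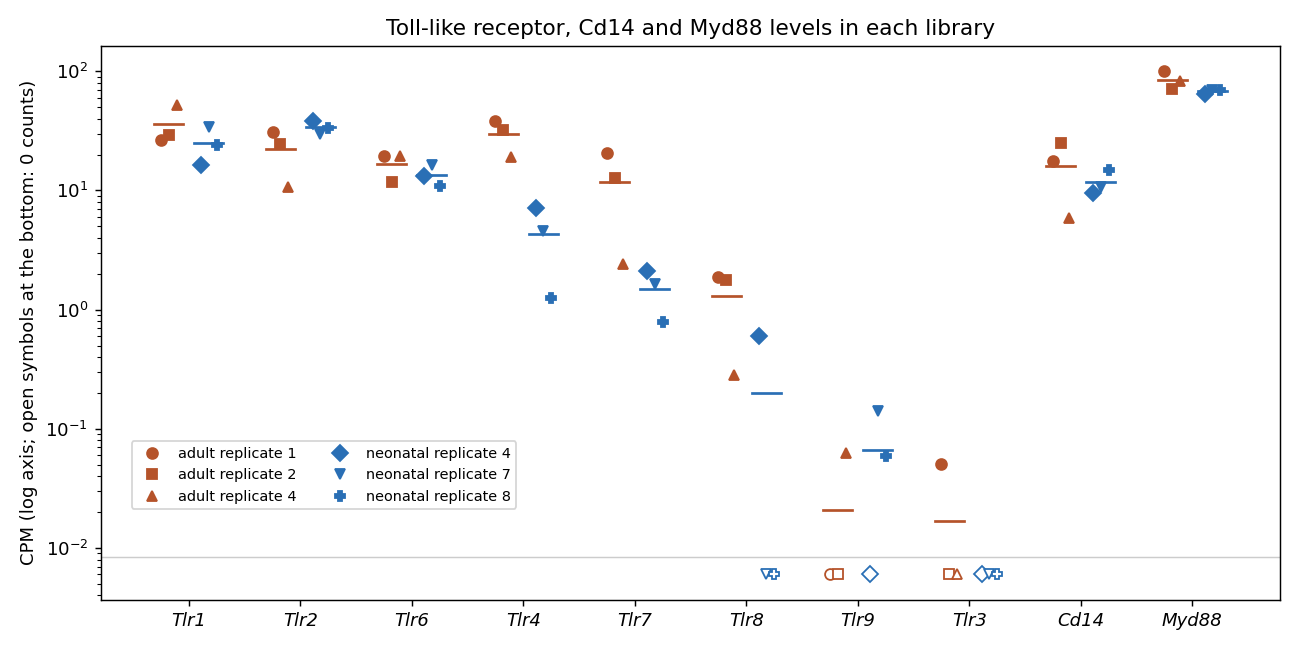
Level of each gene in each library, in CPM on a log axis, adult libraries left of neonatal ones, with a bar at each group's mean and open symbols at the bottom for 0 counts. For Tlr4 the groups lie apart, with adult libraries at 19.1 to 38.1 CPM and neonatal libraries at 1.26 to 7.17 CPM, while Tlr1, Tlr2, Tlr6 and Cd14 overlap.

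Among the surface receptors, Tlr4 (chromosome 4, 66827811 to 66842796, plus strand, 3 exons) had the largest log2 fold change. It was at 38.1, 31.8 and 19.1 CPM in the adult libraries, against 7.17, 4.59 and 1.26 CPM in the neonatal libraries. The lowest adult library was above the highest neonatal library, and the neonatal values spread 5.70-fold against 1.99-fold among the adult ones. Neonatal replicate 4 rested on 24 counts (exact Poisson 95% interval 4.60 to 10.7 CPM, counting error only), which stays below the interval of the lowest adult library, 18.1 to 20.2 CPM. Adult LICs averaged 29.7 ± 9.65 CPM and neonatal LICs 4.34 ± 2.97 CPM (SD, n = 3 each). The log2 fold change was 2.85 ± 0.66 (SE; edgeR adjusted p = 0.162). Without neonatal replicate 4 it was 3.33 ± 0.65 (edgeR adjusted p = 0.0449), while leaving out any other library gave 2.37 to 3.09 and no call. Over 18 alternatives it stayed positive, from 2.37 to 3.53, with adjusted p-values from 1.34e-06 to 0.417 by edgeR, limma or DESeq2, and 4 of them below 0.05.

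Tlr2 (chromosome 3, 83836272 to 83841608), the shared partner in lipoprotein sensing, was at 30.9, 24.7 and 10.7 CPM in the adult libraries, against 38.3, 29.9 and 33.7 CPM in the neonatal libraries. Adult replicate 4 lay apart at the low end, adult replicate 1 reached into the neonatal range, and the neonatal libraries agreed within 1.28-fold. On library totals without TMM scaling the groups did not overlap, at 11 to 30.7 CPM in the adult libraries, against 32.6 to 34.4 CPM in the neonatal libraries. On the log2 scale the difference was -0.62 ± 0.43 (SE, edgeR adjusted p = 0.650). The difference between Tlr2 and Tlr4 can be read within each library, free of scaling. Per kilobase of exon, Tlr2 was at 1.09, 1.04 and 0.754 times the level of Tlr4 in the adult libraries, against 7.19, 8.78 and 36.0 times that level in the neonatal libraries. The genes were thus at like levels in adult LICs, and Tlr2 was well above Tlr4 in each neonatal library.

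Tlr1 (chromosome 5, 64924834 to 64932699), which pairs with Tlr2 for triacylated lipoproteins, was at 26.5, 29.2 and 51.6 CPM in the adult libraries, against 16.4, 34.1 and 23.9 CPM in the neonatal libraries. Here adult replicate 4, lowest of its group for Tlr2, was the highest library. Tlr6 (chromosome 5, 64953095 to 64960034), the partner for diacylated lipoproteins, was at 19.4, 11.7 and 19.3 CPM in adult libraries and at 13.2, 16.3 and 10.8 CPM in neonatal libraries, in the same order of replicates. The groups overlapped for both genes. The log2 fold changes were 0.52 ± 0.42 for Tlr1 and 0.32 ± 0.38 for Tlr6 (SE, edgeR adjusted p = 0.701 and 0.816). Tlr1 per kilobase was 1.38 to 2.71 times Tlr6 in adult and 1.27 to 2.24 times in neonatal libraries.

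Cd14 (chromosome 18, 36725067 to 36726654), which binds lipopolysaccharide and passes it to the Tlr4 complex, overlapped between the groups where Tlr4 did not. It was at 17.7, 24.8 and 5.88 CPM in the adult libraries, against 9.57, 10.8 and 14.8 CPM in the neonatal libraries. The adult libraries spanned the whole neonatal range, with replicate 4 the lowest of all 6. edgeR's log2 fold change was 0.45 ± 0.55 (SE, edgeR adjusted p = 0.820). Per kilobase, Cd14 was at 0.789 to 2.0 times Tlr4 in adult and at 3.43 to 30.1 times Tlr4 in neonatal libraries.

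**Figure D2:**
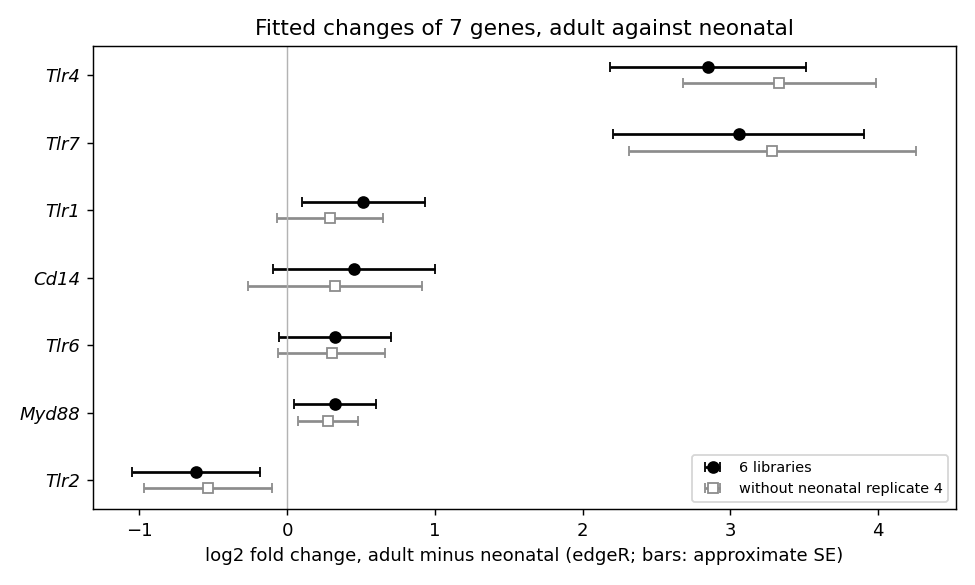
Log2 fold changes, adult minus neonatal, with their approximate SE, for the 7 genes tested other than Tlr8, on all 6 libraries (filled circles) and without neonatal replicate 4 (open squares). Tlr4 and Tlr7 stand at 2.85 and 3.06 on 6 libraries, and the other 5 genes lie between -0.62 and 0.52.

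Of Tlr3, Tlr7, Tlr8 and Tlr9 only Tlr7 was above 2 CPM in any library. Tlr7 (chromosome X, 167304931 to 167330528, minus strand, 3 exons), a sensor of single-stranded RNA, was at 20.5, 12.7 and 2.42 CPM in the adult libraries, against 2.09, 1.63 and 0.785 CPM in the neonatal libraries. Adult replicates 1 and 2 were well above the rest, and adult replicate 4 was barely above neonatal replicate 4, whose 7 counts allow 0.841 to 4.31 CPM (exact Poisson 95% interval), a range that holds the whole interval of adult replicate 4, 2.05 to 2.83 CPM. Adult LICs averaged 11.9 ± 9.08 CPM and neonatal LICs 1.5 ± 0.66 CPM (SD, n = 3 each). The log2 fold change was 3.06 ± 0.85 (SE, edgeR adjusted p = 0.211). It was 3.29 ± 0.97 without neonatal replicate 4 (edgeR adjusted p = 0.0874), and from 2.36 to 3.55 over 17 alternatives, with adjusted p-values from 0.00137 to 0.528 by edgeR, limma or DESeq2.

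Tlr8 (chromosome X, 167242732 to 167263788), like Tlr7 a gene of an RNA sensor, ran at a lower level. It was at 1.86, 1.79 and 0.281 CPM in the adult libraries. In the neonatal libraries it had 2 counts in replicate 4 (0.598 CPM, exact Poisson 95% interval 0.0724 to 2.16 CPM) and 0 counts in replicates 7 and 8. Pooled, the adult libraries held 1.30 CPM, at least 60-fold higher than neonatal replicates 7 and 8 at a floor of 3 counts over the 2 together, while the shallow neonatal replicate 4 lay above adult replicate 4. Against neonatal replicate 4 alone the ratio was 2.18 (exact binomial 95% interval 0.597 to 18.1, counting error only), and the ratio of the group means over all 6 libraries was 6.57. The edgeR adjusted p was 0.453 on 6 libraries and 0.0519 without neonatal replicate 4, and the fitted fold change of a gene at 0 depends on the prior count and is not given. Over 15 alternatives its adjusted p ran from 0.000103 to 0.780 by edgeR, limma or DESeq2.

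Both genes are X-linked in libraries whose sex went with the age group. The 415 other X-linked genes tested, Xist left out, had a median log2 fold change of 0.12, against -0.052 over all genes. Of them 56.1% were positive, against 46.5% of all genes. In 18.1% every adult library lay above every neonatal one, and in 4.58% every adult library lay below. Over all genes these shares were 12% and 7.67%. For Tlr7 and Tlr8 the part of sex in the difference cannot be told apart from that of age.

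Tlr3 (chromosome 8, 45395665 to 45410539), the sensor of double-stranded RNA that does not use Myd88, had 3 counts in all, from adult replicate 1. Tlr9 (chromosome 9, 106222598 to 106226876), the sensor of unmethylated CpG DNA, had 0, 0 and 4 counts in the adult libraries and 0, 10 and 4 counts in the neonatal libraries. Their levels were at most 0.142 CPM. The exact Poisson 95% upper limits were at most 0.261 CPM in the 5 deep libraries and 1.10 CPM in neonatal replicate 4, which had 0 counts of either gene.

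Myd88 (chromosome 9, 119335988 to 119340040, minus strand, 6 exons), the adaptor that most of these receptors share, had the highest level of the 10 genes per kilobase in each of the 6 libraries. It was at 100.2, 71.5 and 83.4 CPM in the adult libraries, against 64.6, 69.9 and 69.1 CPM in the neonatal libraries. The groups did not overlap, but adult replicate 2 and neonatal replicate 7 were close, with exact Poisson 95% intervals of 69.5 to 73.6 and 68.0 to 71.9 CPM. On library totals without TMM scaling the groups did overlap, at 73.7 to 99.4 CPM in the adult libraries, against 54.9 to 76.3 CPM in the neonatal libraries. On the log2 scale the difference was 0.32 ± 0.28 (SE, edgeR adjusted p = 0.719).

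Ordered by level per kilobase, Myd88 led in adult LICs with 44.6 ± 7.55 CPM per kilobase, clear of Tlr1 at 13.9 ± 5.38 (SD, n = 3 each). Behind it Tlr1, Cd14, Tlr2, Tlr4, Tlr6 and Tlr7 formed a run in which each neighbour overlapped the next within 1 SD, with Tlr4 at 7.72 ± 2.51 and Tlr7 at 3.17 ± 2.42 CPM per kilobase. In neonatal LICs Myd88 was at 35.6 ± 1.51 CPM per kilobase, followed by Tlr2, Tlr1, Cd14 and Tlr6, each overlapping its neighbour. Tlr4 came after a gap, at 1.13 ± 0.771 against 5.16 ± 1.05 CPM per kilobase for Tlr6 just above it (SD, n = 3 each), and overlapped Tlr7 at 0.401 ± 0.177. Tlr4 held 25.7%, 25.3% and 13.7% of the summed surface receptor level in the adult libraries and 6.98%, 3.82% and 1.28% in the neonatal libraries. Tlr3, Tlr7, Tlr8 and Tlr9 held 13.6%, 10.8% and 2.03% of the summed level of the 8 receptor genes in the adult libraries. They held 2.72%, 1.5% and 0.878% in the neonatal libraries, so adult replicate 4 lay among the neonatal libraries in this share. Tlr13, also endosomal, is not among the 8 receptor genes, so the share does not describe all endosomal receptors. Per kilobase Tlr13 was at 6.92, 11.1 and 1.30 CPM in the adult libraries, against 0.894, 8.58 and 13.0 CPM in the neonatal libraries.

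**Figure D3:**
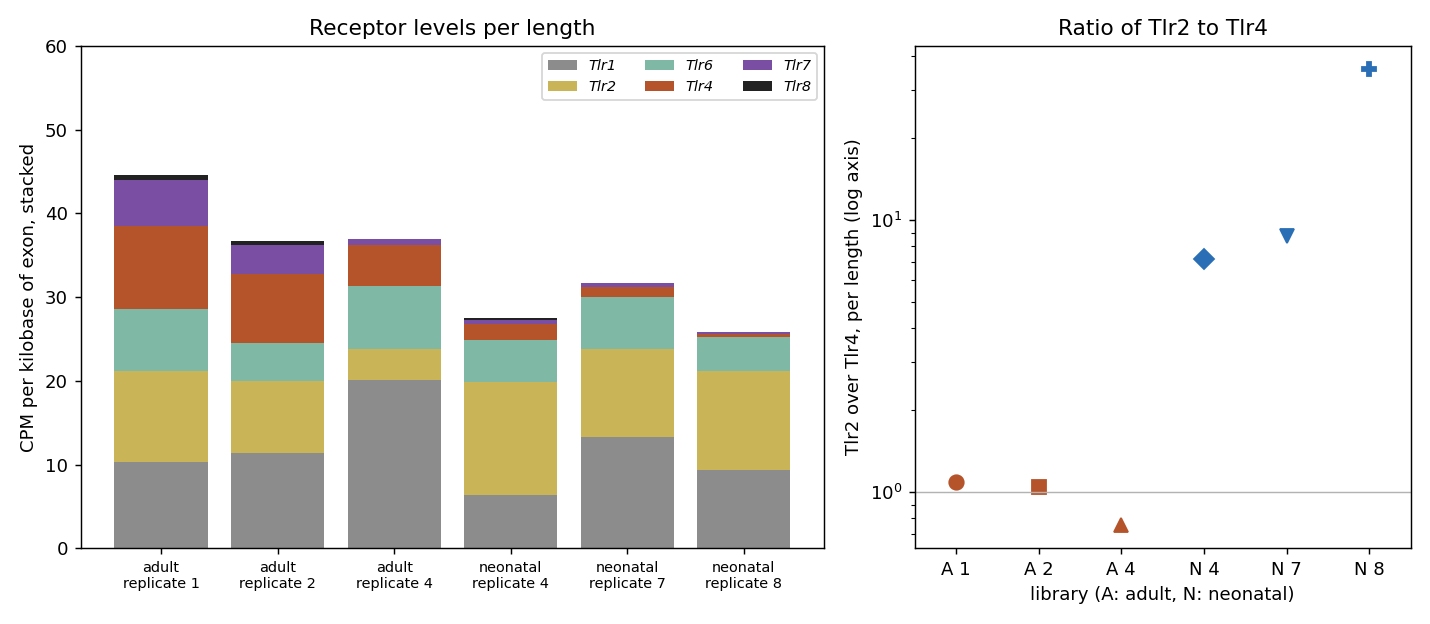
Left, levels of 6 receptor genes in CPM per kilobase of exon, stacked for each library, adult libraries on the left (Tlr3 and Tlr9, at most 0.0408, are not drawn). Right, Tlr2 over Tlr4 per kilobase on a log axis, from 0.754 to 1.09 in the adult and from 7.19 to 36.0 in the neonatal libraries.

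Neutrophil markers lay in the same direction as Tlr4 and Tlr7. The summed level of 10 neutrophil markers was 5974, 14890 and 1846 CPM in the adult libraries and 292, 156 and 79.6 CPM in the neonatal libraries. All 10 had a positive log2 fold change and 5 did not overlap between the groups, S100a8 and Camp among them. Without neonatal replicate 4 edgeR called 1 of the 10 higher (S100a8, edgeR adjusted p = 0.0437) and 0 lower. Cxcr2, the receptor that draws mature neutrophils to chemokines, overlapped at 16.7 to 31.5 CPM in the adult libraries, against 8.48 to 42.4 CPM in the neonatal libraries. Of 11 tested monocyte and macrophage markers 8 were positive, and the sum overlapped, at 2551 to 2808 CPM in the adult libraries, against 1550 to 4784 CPM in the neonatal libraries. Ly6c2, a monocyte surface gene with the highest level of the list, overlapped at 1255 to 2353 CPM in the adult libraries, against 915 to 3992 CPM in the neonatal libraries. Lyz2, a lysozyme gene of myeloid cells, also overlapped, at 1106, 964 and 270 CPM in the adult libraries, against 468, 197 and 35.8 CPM in the neonatal libraries. Cd68, a macrophage lysosomal gene chosen after its values were seen, lay the other way without overlap, at 70.7 to 92.8 CPM in the adult libraries, against 192 to 284 CPM in the neonatal libraries. For Cd68 the log2 fold change came to -1.56 (edgeR adjusted p = 0.140), and to -1.60 without neonatal replicate 4 (edgeR adjusted p = 0.0360). Fcgr1 and Vcan of the same list were higher in adult libraries without overlap, both at low levels. They were at 0.499 to 0.972 and 0.71 to 1.78 CPM in the adult libraries. In the neonatal libraries Fcgr1 had 0 counts and Vcan was at 0 to 0.340 CPM. The limit in neonatal replicate 4, with 0 counts of both, was 0.897 CPM. Without that library edgeR called 1 of the list higher (Fcgr1, edgeR adjusted p = 0.0498) and 1 lower (Cd68). The part of these cells in the Tlr4 and Tlr7 difference was not tested, and in bulk RNA fewer cells of a type and less RNA per cell cannot be told apart.

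Several defining markers of lymphocytes and red cells were not counted at all. Pax5 and Ms4a1 of B cells, Cd3e, Cd3g, Ncr1 and Gzma of T and NK cells, and Slc4a1 of red cells had 0 counts in all 6 libraries. The summed B cell markers, almost wholly Cd79b, were at 29.4 to 70.0 CPM in the adult libraries, against 72.0 to 147 CPM in the neonatal libraries. Blnk of the same list lay the other way, with 35, 33 and 55 counts in the adult libraries and 0 counts in the neonatal ones. Its edgeR adjusted p was 0.140, and 0.0499 without neonatal replicate 4. Its adult levels, 0.491 to 0.857 CPM, were below the limit of 0.897 CPM in neonatal replicate 4. The summed markers of T and NK cells were at 0.729 to 1.43 CPM in the adult libraries, against 0.326 to 1.79 CPM in the neonatal libraries. Markers of red cells and platelets summed to 1.15 to 4.29 CPM in the adult libraries, against 0.299 to 44.5 CPM in the neonatal libraries. Itga2b made up almost all of the sum in neonatal replicates 7 and 8, at 6.73 and 44.3 CPM. Alas2 of the same list lay the other way without overlap, at 0.453 to 1.65 CPM in the adult libraries. In the neonatal libraries Alas2 was at 0.178 to 0.299 CPM, with 1 count in replicate 4. Of plasmacytoid dendritic cells, a main source of Tlr7 and Tlr9 in blood, Siglech had 4, 6 and 3 counts in the adult libraries, against 0, 1 and 2 counts in the neonatal libraries, while the summed list, carried by Tcf4, Runx2 and Bst2, was at 106 to 154 CPM in the adult libraries, against 198 to 633 CPM in the neonatal libraries. Conventional dendritic cell markers summed to 11.9 to 46.3 CPM in the adult libraries, against 10.5 to 14.1 CPM in the neonatal libraries.

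Likeness to the receptor genes was measured as the root mean square difference of centred log2 CPM over the 6 libraries, as a description. For Tlr4 the nearest genes were Pou5f2 (0.325) and Tmc7 (0.361), against a range of 4.88 of Tlr4 itself on that scale. Tmc7 was at 47.3, 44.7 and 21.2 CPM in the adult libraries, against 5.68, 7.52 and 2.07 CPM in the neonatal libraries. For Tlr7 they were Clec4a3 (0.329) and 6330407A03Rik (0.355). Clec4a3, a C-type lectin receptor gene, was at 16.4, 13.2 and 1.39 CPM in the adult and 1.20, 1.5 and 0.711 CPM in the neonatal libraries. Haao and Plaur, the urokinase receptor gene, were nearest to Tlr2 (0.178 and 0.194), Arid5a and Cars to Tlr1 (0.128 and 0.151), Mospd3 and Fbxw17 to Tlr6 (0.0829 and 0.110), Jhdm1d and Tesc to Cd14 (0.128 and 0.192), and Klhdc1 and 1810074P20Rik to Myd88 (0.0525 and 0.0649). Among the genes themselves, Tlr6 and Myd88 were closest (0.221), and Tlr4 was closest to Tlr7 (0.745). The ranges of Tlr6 and Myd88 were only 0.844 and 0.633, against 4.65 for Tlr7. Genes that vary little differ little by this measure, so its values do not rank pairs of unlike range.

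Fold changes of other pathway genes lay on both sides of zero. Of 75 genes in 8 lists, 66 were tested, 32 with a positive and 34 with a negative log2 fold change (median -0.021, and -0.236 without neonatal replicate 4). By edgeR on 6 libraries 0 of the 66 passed and 8 had an unadjusted p below 0.05, where 1585 of all 13272 genes did. DESeq2 called 2 higher and 1 lower in adult LICs (5.44% of all genes were called). Limma voom called 0 (0.0527%), and voom with library quality weights 1 higher and 3 lower (7.96%). Without neonatal replicate 4, edgeR called 1 higher (Il1rn) and 2 lower (Unc93b1 and Rela), where 5.98% of all genes were called. In that fit 19 of the 66 had an unadjusted p below 0.05, against 4092 of all 13856 genes. In 6 genes every adult library lay above every neonatal one, and in 4 every adult library lay below, where 12% and 7.67% of all genes did.

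Among other receptors, 3 of 5 were tested and 0 passed (median -1.31, and -1.14 without neonatal replicate 4). Tlr13, the mouse sensor of bacterial ribosomal RNA, was at 27.8, 44.5 and 5.21 CPM in the adult libraries, against 3.59, 34.5 and 52.4 CPM in the neonatal libraries. Tlr13 is endosomal and X-linked. Its groups overlapped (log2 fold change -0.24 ± 0.95, SE, edgeR adjusted p = 0.954, and -0.76 without neonatal replicate 4). Cd180, a receptor without a signalling domain that dampens Tlr4 in myeloid cells, was at 1.42, 4.60 and 1.12 CPM in the adult libraries, against 7.47, 5.03 and 5.41 CPM in the neonatal libraries. Every adult library was below every neonatal one (log2 fold change -1.31 ± 0.67, SE, edgeR adjusted p = 0.506, and -1.14 without neonatal replicate 4). Ly86, of the co-receptor list, encodes the protein bound to Cd180 and also did not overlap, at 22.5, 120 and 27.9 CPM in the adult libraries, against 646, 234 and 180 CPM in the neonatal libraries. edgeR's log2 fold change was -2.63 ± 0.79 (SE, edgeR adjusted p = 0.239), and -1.87 without neonatal replicate 4.

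In the list of co-receptors 4 of 5 were tested and 0 passed (median -0.652, and -0.437 without neonatal replicate 4). Hmgb1, a nuclear protein that acts as a danger signal when released, had a log2 fold change of 0.0073, and of 0.58 without neonatal replicate 4. Ly96, chosen after its values were seen, encodes the partner on which Tlr4 depends to bind lipopolysaccharide. It was at 3.50, 3.83 and 3.35 CPM in the adult libraries, against 15.2, 7.66 and 3.30 CPM in the neonatal libraries. Ly96 thus lay on the other side of zero from Tlr4, with overlap (log2 fold change -1.27 ± 0.61, SE, edgeR adjusted p = 0.481, and -0.63 without neonatal replicate 4).

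All 10 genes for folding, trafficking and cleavage of the receptors were tested, and 0 passed on 6 libraries (median -0.319, and -0.0749 without neonatal replicate 4). Unc93b1, which carries the nucleic acid receptors to endosomes, was at 167, 222 and 198 CPM in the adult libraries, against 167, 685 and 572 CPM in the neonatal libraries. Neonatal replicate 4 stood with the adult libraries and the other 2 neonatal ones well above. The log2 fold change was -1.28 ± 0.51 (SE, edgeR adjusted p = 0.374), and without that library Unc93b1 was lower in adult LICs, at -1.69 ± 0.19 (edgeR adjusted p = 0.0320). Hsp90b1, the chaperone that folds the receptors, and Ctsb, a lysosomal protease, had log2 fold changes of 0.46 and -0.44, and of 0.52 and -0.61 without neonatal replicate 4.

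All 5 other adaptors and all 16 kinases and ubiquitin ligases were tested, and 0 passed with or without neonatal replicate 4 (medians -0.0099 and 0.173 on 6 libraries, and -0.231 and 0.0426 without it). Tirap, which bridges Tlr2 and Tlr4 to Myd88, was at 53.2, 41.1 and 33.7 CPM in the adult libraries, against 18.8, 19.8 and 35.4 CPM in the neonatal libraries. On the log2 scale the difference was 0.78 ± 0.38 (SE, edgeR adjusted p = 0.472), and 0.62 without neonatal replicate 4. Pik3ap1, an adaptor to PI3 kinase, had a log2 fold change of -0.51, Irak1, the kinase recruited through Myd88, one of -0.24, and Ube2n, a ubiquitin-conjugating enzyme of the pathway, one of -0.11. Without neonatal replicate 4 these were -1.02, -0.55 and 0.20, so Ube2n turned sign. Of 13 inhibitors 12 were tested and 0 passed in either fit (median 0.140), with Nfkbia, the NF-kappaB inhibitor gene, at 0.38 and Tollip, an inhibitor of IRAK signalling, at 0.21. Without neonatal replicate 4 the median turned to -0.203 and Tollip to -0.11, and Nfkbia stayed at 0.38.

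All 8 transcription factors were tested and 7 were negative (median -0.802, and -1.21 without neonatal replicate 4), with 0 past the threshold on 6 libraries. Of all genes 46.5% were positive. The groups overlapped for all 8 factors. Rela, an NF-kappaB subunit, was at 71.7, 73.9 and 64.7 CPM in the adult libraries, against 46.0, 149 and 196 CPM in the neonatal libraries. Its log2 fold change was -0.90 ± 0.49 (SE, edgeR adjusted p = 0.539), and without neonatal replicate 4 Rela was lower in adult LICs, at -1.31 ± 0.19 (edgeR adjusted p = 0.0360). Nfkb1, the subunit it often pairs with, had log2 fold changes of -0.77 and -1.11 in the same fits and did not pass (edgeR adjusted p = 0.599 and 0.0939).

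Of 13 target cytokines and enzymes 8 were tested and 0 passed on 6 libraries (median 1.39, and 1.12 without neonatal replicate 4), and Il10 and Ifnb1 had 0 counts in every library. Il1rn, the antagonist of the interleukin-1 receptor, was at 22.3, 21.2 and 9.02 CPM in the adult libraries, against 2.99, 1.43 and 0.222 CPM in the neonatal libraries, without overlap. Its log2 fold change was 3.73 ± 0.93 (SE, edgeR adjusted p = 0.173), and without neonatal replicate 4 Il1rn was higher in adult LICs, at 4.39 ± 0.94 (edgeR adjusted p = 0.0492). Ccl3, a chemokine gene, lay the other way without overlap, at 4.27, 8.49 and 13.0 CPM in adult libraries and 32.3, 18.0 and 20.0 CPM in neonatal libraries. edgeR's log2 fold change was -1.44 ± 0.50 (SE, edgeR adjusted p = 0.316), and -1.15 without neonatal replicate 4.

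**Figure D4:**
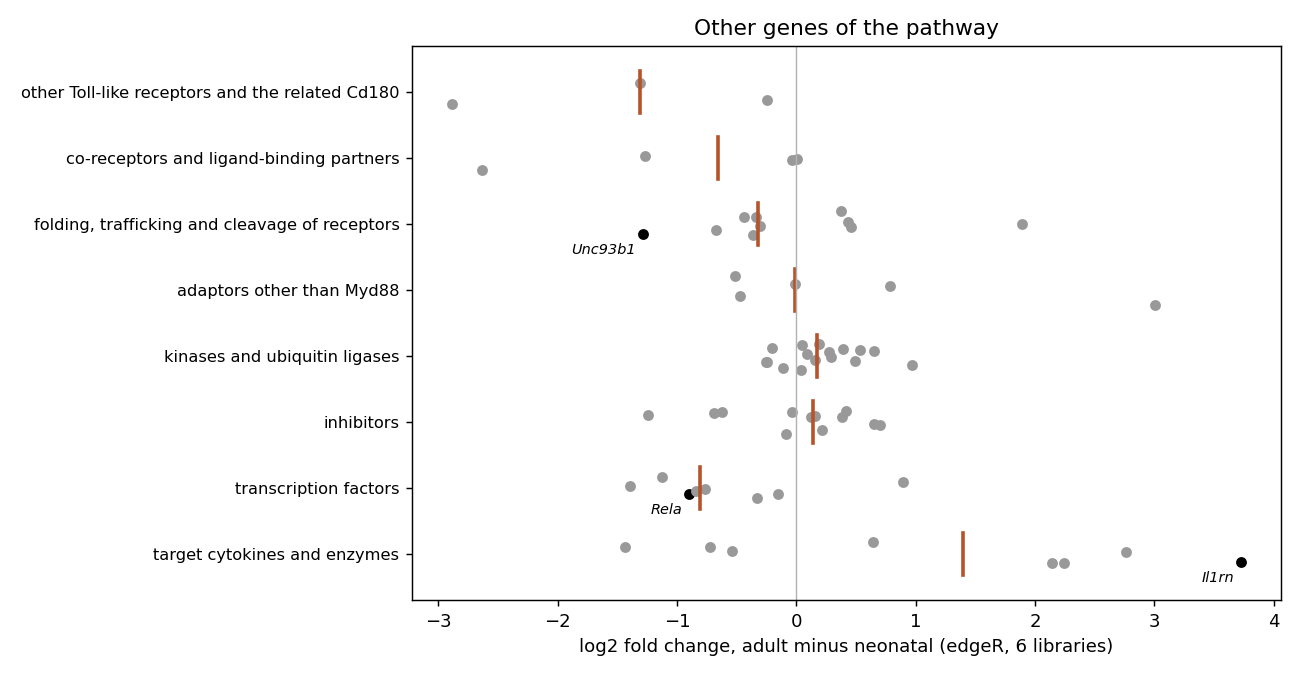
Log2 fold changes, adult minus neonatal, of 66 other pathway genes on 6 libraries, 1 point a gene and 1 row a list, with a bar at each list's median; black points with names passed edgeR without neonatal replicate 4. Points lie on both sides of 0, with medians from -1.31 for other receptors to 1.39 for target genes.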

How the data were processed

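PolyA-selected RNA was prepared with the NEBNext Ultra RNA kit and sequenced as single-end reads of 75 bases, per the labels' protocols. That kit does not keep strand. The deposited table holds raw counts per gene. Per the file headers, featureCounts v1.5.1 counted primary alignments over a UCSC mm10 annotation with no strand option. Trimmomatic, Bowtie, TopHat and DESeq2 also stand in the submitters' processing notes. The deposited exon length per gene, per the file headers, gave CPM per kilobase.

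Adult minus neonatal was tested in edgeR 4.0.16 (R 4.3.3) on the 13272 genes that filterByExpr kept at a minimum count of 10 (13856 without neonatal replicate 4). TMM factors and the robust quasi-likelihood test were used, and an adjusted p (Benjamini-Hochberg) below 0.05 is a call. The SE is the absolute log2 fold change over the square root of F, an approximation. Log2 CPM for likeness used a prior count of 2. The fit was tested on simulated data, whose outcome is not given here, and no result here rests on that test. Alternatives used DESeq2 1.42.0, limma 3.58.1, other scalings and filters, thinning to the depth of neonatal replicate 4, leaving out the X and Y chromosomes, and leaving out every library in turn.

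The 10 genes, the pathway and marker lists and the tests were chosen with earlier results of these data known, so counts over them are descriptions. Named pathway genes were those called in either fit and the 2 with the highest mean CPM of each list. Ly96 and the markers Kit, Cd34, Hlf, Cd68, Fcgr1, Vcan and Blnk were added after their values were seen. Likeness was sought for genes with a mean of at least 2 CPM, giving the nearest 2. Ly6g and Trbc2 were listed as markers and not used here. Some other listed markers are not reported here, and Hba-a1 and Hba-a2 are left out because their exons nearly coincide and featureCounts by default counts no read that falls on both. Intervals and floors cover counting error only.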

Additional observations from a re-analysis of the deposited data

How the results depend on the processing

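Over 18 alternatives the 8 genes tested gave 140 log2 fold changes, of which 0 reversed, 132 kept their direction and their side of the threshold and 8 came to pass it: Tlr4 in 4, Tlr7 in 2 and Tlr8 in 2. Tlr7 and Tlr8 have no value with chromosomes X and Y left out, and Tlr8 none under thinning or the filter of 1 CPM. Of the Toll-like receptor genes, DESeq2 called 2 higher in adult LICs, voom with library quality weights 2, and DESeq2 without neonatal replicate 4 3. Of the pathway genes the same settings called 2 higher and 1 lower, 1 higher and 3 lower, and 4 higher and 12 lower. Of all genes they called 444 higher and 328 lower, 519 higher and 537 lower, and 1645 higher and 1798 lower (24.1%), against 5 and 2 by edgeR on 6 libraries. RLE scaling gave 4 higher and 1 lower, upper-quartile scaling 5 and 1, thinning 4 and 1, and leaving out chromosomes X and Y 0 and 0. Leaving out 1 library at a time gave 1 to 312 genes higher and 0 to 516 lower, with both highest values without neonatal replicate 4; for the Toll-like receptor genes it gave 0 to 1 higher and 0 lower, and for the pathway genes 0 to 1 higher and 0 to 2 lower. Of the 5 genes called higher by edgeR on 6 libraries, 4 were the Y-linked Ddx3y, Eif2s3y, Kdm5d and Uty. Xist was 1 of the 2 called lower. These genes are not in the fit that leaves out chromosomes X and Y. The cause of the other differences was not tested. All 20 group levels per kilobase moved by less than 1 SD on library totals. The depth of neonatal replicate 4 limits what can be said of Tlr3, Tlr8 and Tlr9. No paired analysis was possible because the groups share only replicate number 4.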
